A study of Mus musculus with 6 samples.

Results

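Cytosolic ribosomal protein genes were taken from RNA-Seq of C2C12 cells, a mouse myoblast line that forms myotubes when serum is withdrawn. A gene was a member when its symbol was Rpl or Rps with a number and at most the ending a, x, l or l1, or Rplp0, Rplp1, Rplp2 or Rpsa. The rule found 82 members among 23231 genes with counts, 51 of the large subunit and 31 of the small subunit. It also matched Rpl10l, Rpl39l, Rps4l and Rps12l1 in the annotation, but these 4 were listed in none of the 6 libraries and have no values here. The members comprised 4 named paralogs (Rpl3l, Rpl7l1, Rpl22l1 and Rps27l) and 78 others, called the core, of which Rpl6l and Rpl32l are annotated as processed pseudogenes. All 82 members passed the low-count filter, which left 14378 genes to test, so no member was lost to it.

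Cytosolic ribosomes join a small to a large subunit and carry a single copy of most ribosomal proteins, whose mRNAs are among the most abundant of a growing cell. Most of these mRNAs begin with a cytidine followed by a run of pyrimidines, the 5' terminal oligopyrimidine (TOP) motif, through which mTOR signalling controls their translation. A few members have a paralog with a narrower expression, such as Rpl3l, which is known from heart and skeletal muscle.

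The start of the transcript follows for members that the results return to, because the TOP motif is what these genes are known to share. Each line is a RefSeq promoter window on GRCm38.p6 of 30 bases, 15 before and 15 after an annotated start, read along the gene. Where a gene had several starts, one with a marked run was shown if there was any, and otherwise the first by position. The window of Rpl22 lies upstream of the GENCODE gene model, which begins at chr4:152325742. Capitals mark a C followed by at least 4 C or T and beginning within 5 bases of the start.
Rps27, chr3:90213634-90213663, minus strand: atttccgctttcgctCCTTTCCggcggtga
Rps27l, chr9:66946071-66946100, plus strand: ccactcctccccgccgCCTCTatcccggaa
Rpl22, chr4:152324421-152324450, plus strand: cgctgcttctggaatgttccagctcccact
Rpl22l1, chr3:28805493-28805522, plus strand: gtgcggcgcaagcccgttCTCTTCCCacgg
Rps10, chr17:27635230-27635259, minus strand: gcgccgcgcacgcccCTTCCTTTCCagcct
Rpl35a, chr16:33056467-33056496, plus strand: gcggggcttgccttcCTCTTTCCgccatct
Rpl4, chr9:64173372-64173401, plus strand: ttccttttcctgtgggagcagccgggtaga
Rpl3l, chr17:24727811-24727840, plus strand: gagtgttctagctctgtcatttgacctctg
Rpl7l1, chr17:46782642-46782671, minus strand: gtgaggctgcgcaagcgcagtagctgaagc

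Promoters were matched for 61 members, and 30 of them (49.2%) had such a run at any of their starts, against 5718 of 27025 genes with a promoter (21.2%). Only the gene's own strand was read, with no other motif searched, and a window without a run says only that these letters are not there at the annotated start. Rps27l and Rpl22l1 had a run, whereas Rpl3l and Rpl7l1 had none.

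The comparison asked how repression of an enhancer of Myog, called En5, changed the transcriptome. Cells were transduced with lentivirus of dCas9-KRAB (a Cas9 without nuclease activity joined to a repressor domain) or of dCas9-KRAB-En5 (with sgRNAs against En5) at an MOI of 100. Puromycin (2 μg/ml) selected the transduced cells, 2% horse serum drove their differentiation, and poly(A) RNA of day 5 was sequenced. Each group had 3 libraries. Nothing in the labels says that replicates were separate cultures, so p-values measure the spread between these libraries.

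Myog, the target, was counted 43211, 68488 and 74845 times in the dCas9-KRAB libraries and 12, 0 and 0 times in the dCas9-KRAB-En5 libraries, replicates 1 to 3 in this order here and throughout. Library totals ranged from 31831093 to 73988425 counts. The 10 muscle markers summed to between 17348 and 20530.4 TPM in dCas9-KRAB and to between 15.7 and 24.2 TPM in dCas9-KRAB-En5, so the differentiated muscle genes were near 0 in the second group. Of 12 macrophage markers, 7 or 8 reached 10 TPM in each dCas9-KRAB library and 8 or 9 in each dCas9-KRAB-En5 library, with sums of 3711.5 to 3903 and of 4912 to 7759.7 TPM, while C1qa, C1qb and C1qc stayed at or under 0.982 TPM in every library. The 7 listed fibroblast markers summed to 81.4 to 244 TPM and 28.999 to 60.5 TPM in the groups, and the 4 listed erythroid markers to 6.27 to 11.4 TPM and 1.43 to 7.96 TPM. The part of these differences in any result below was not tested, and in bulk RNA fewer cells of a type and less RNA per cell cannot be told apart. dCas9-KRAB-En5 replicate 3 stood apart: it listed 13991 genes against 17084 to 19395 in the other libraries, so results that rest on it are given with and without it.

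Members were abundant in every library. On the TPM scale, which divides counts by gene length, the median of the members' mean levels was 1395 TPM with quartiles of 632 and 2418 TPM. Of the 82 members, 50 had a mean of at least 1000 TPM, and 30 were among the 100 genes with the highest mean TPM. Rplp1, an acidic protein of the ribosomal stalk that recruits elongation factors, had the highest level, with 24859.5, 20060.4 and 24286 TPM in dCas9-KRAB against 21184, 17632 and 55008 TPM in dCas9-KRAB-En5. dCas9-KRAB-En5 replicate 3 was above all others for Rplp1, and the other 5 libraries overlapped between the groups. Rps15 followed with a mean of 10921 ± 1631 TPM (SD, n = 3) in dCas9-KRAB, against 11211 ± 4929.5 TPM in dCas9-KRAB-En5. Rpl41, which encodes a very short basic peptide, had 9218 ± 1890.3 TPM and 7070.2 ± 4614 TPM. Rpl36 had 6137 ± 1148 TPM and 8712 ± 4338 TPM, and Rplp0, the scaffold of the stalk, had 7511 ± 1118 TPM and 6590.1 ± 821 TPM. The order among Rpl36, Rplp0 and Rpl41 was within their spread in dCas9-KRAB-En5.

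At the other end, 9 members had a mean under 100 TPM. Rpl24 was lowest, with 0.143, 0.441 and 0.0867 TPM in dCas9-KRAB and 1.146, 0.344 and 0.467 TPM in dCas9-KRAB-En5, which are 4 to 25 counts per library. In the GENCODE annotation 47% of the exon bases of Rpl24 lie also in exons of Gm28037 on the same strand, and 81.7% of its 50-base words occur in other genes. Rps10 had 2.73, 2.69 and 3.49 TPM in dCas9-KRAB, and 20.6% of its exon bases lie in RPS10-NUDT3. Neither Gm28037 nor RPS10-NUDT3 was listed in any library. Rpl21 had between 4.32 and 10.9 TPM, Rpl32l between 5.83 and 12.9 TPM and Rpl29 between 51.9 and 98.3 TPM. How reads in overlapping exons or in several copies were counted is not given in the sources used here, so these low levels are uncertain as levels of the mRNA. Words of 50 bases were shared with another gene by 80 of the 82 members, and at least 50% of the words of 28 members were shared. Across the 76 core members that are not pseudogenes, mean TPM and the share of shared words had a Spearman correlation of -0.07, mean TPM and the number of genes sharing words one of -0.35, and mean TPM and exon length one of -0.51, as descriptions across genes.

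Together the members held 19.2%, 12.0% and 14.8% of the counts of the dCas9-KRAB libraries and 15.6%, 10.6% and 25.7% of those of dCas9-KRAB-En5. Replicate 3 of dCas9-KRAB-En5 was the highest of all, 1.34 times the next library, and the remaining libraries of the groups interleaved. The group means were 15.3 ± 3.66% and 17.3 ± 7.68% (SD, n = 3), a difference smaller than either spread, and without replicate 3 the dCas9-KRAB-En5 mean was 13.1%. As a share of TPM the values were 18.9%, 14.3% and 16.5% against 19.1%, 14.3% and 25.6%. Both subunits took part, with the small subunit at 11% of counts in dCas9-KRAB-En5 replicate 3 against 4.35% to 7.91% elsewhere. The 680 annotated pseudogene models that carry a ribosomal protein name or share words with a member held another 3.82% to 6.67% of counts, and 9.17% in that replicate. Genes of the mitochondrial genome took 2.33% of counts there, inside the range of 0.696% to 2.57% of the others.

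**Figure D1:**
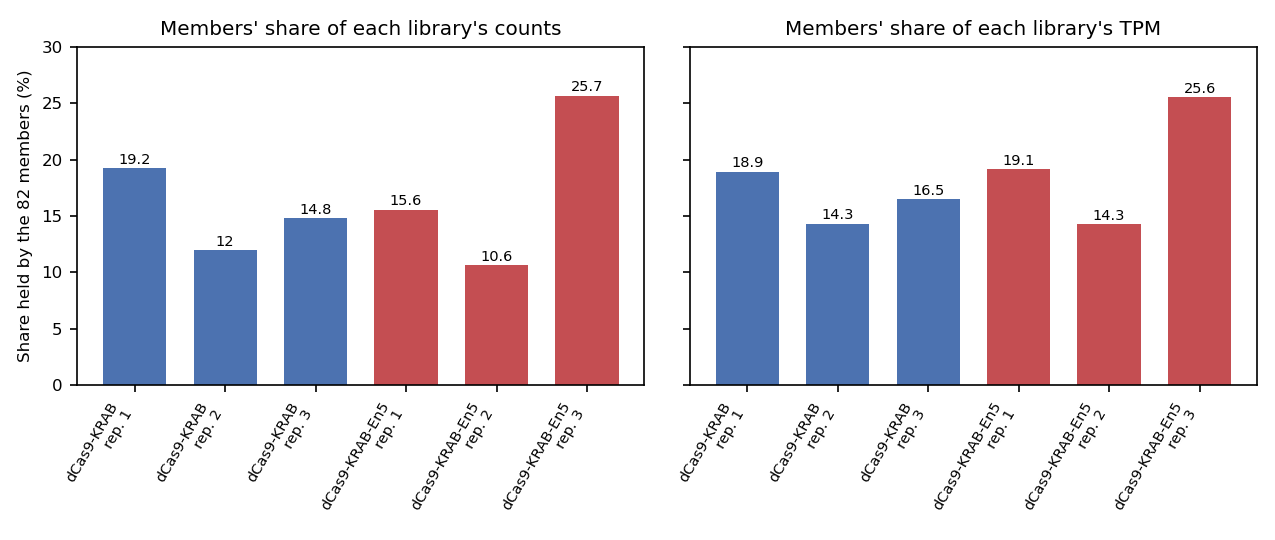
Share of each library (y axis, percent) held by the 82 members, as counts on the left and as TPM on the right, with 1 bar per library, blue for dCas9-KRAB and red for dCas9-KRAB-En5. Replicate 3 of dCas9-KRAB-En5 is the highest bar in both panels, at 25.7% and 25.6%, and the other bars of the groups overlap.

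The order of members by level was kept between libraries. Spearman correlations of the members' TPM over the 82 genes ranged from 0.892 to 0.994 among the 15 pairs of libraries, as a description with no test. The lowest was within dCas9-KRAB-En5, and the 5 pairs with its replicate 3 ranged from 0.892 to 0.967. The members also moved together inside a group: dCas9-KRAB replicate 1 had the highest TPM of its group for 66 of 82 members, against 38.2% of all tested genes. dCas9-KRAB replicate 2 had the lowest for 71, and the matching share of all tested genes is not reported here. The median SD of TMM-scaled log2 CPM within a group was 0.43 for members and 0.53 for all tested genes in dCas9-KRAB. In dCas9-KRAB-En5 it was 0.94 for members and 0.70 for all tested genes. Without replicate 3 the SD between the remaining pair was 0.48 for members and 0.26 for all tested genes. The same SDs with counts scaled to library totals alone, without TMM factors, are not reported here. Whether the larger spread of members in dCas9-KRAB-En5 holds on that scale was not tested.

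Replicate 3 of dCas9-KRAB-En5 did not stand apart alike for all members. Set against the mean of replicates 1 and 2 in CPM (counts scaled to equal library totals), 65 of 81 members with counts were higher, with a median log2 ratio of 0.69, whereas the median tested gene was at -0.85 and 28.1% of tested genes were higher. In TPM the median log2 ratio of members was 0.18 and 48 members were higher, while the same values over all tested genes are not reported here. Rps14, a small subunit protein of the platform, had the highest ratio: its TPM of 1784 and 1459.9 in replicates 1 and 2 compares with 5976 in replicate 3, a ratio of 3.68. Rplp1 had a ratio of TPM of 2.83 and Rpl41 one of 2.77, from 5289 and 3613 TPM to 12309 TPM. At the other end Rpl7 had 1374 and 723 TPM in replicates 1 and 2 and 366 TPM in replicate 3, a ratio of 0.349. Rps4x, the X-linked copy of Rps4, had 3279, 1929 and 923 TPM, and Rpl21 had 10.9, 9.30 and 4.32 TPM. Replicate 3 thus held the highest TPM of all 6 libraries for 30 members, against 3.57% of all tested genes. It held the lowest for 8, and the matching share of all tested genes is not reported here.

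**Figure D2:**
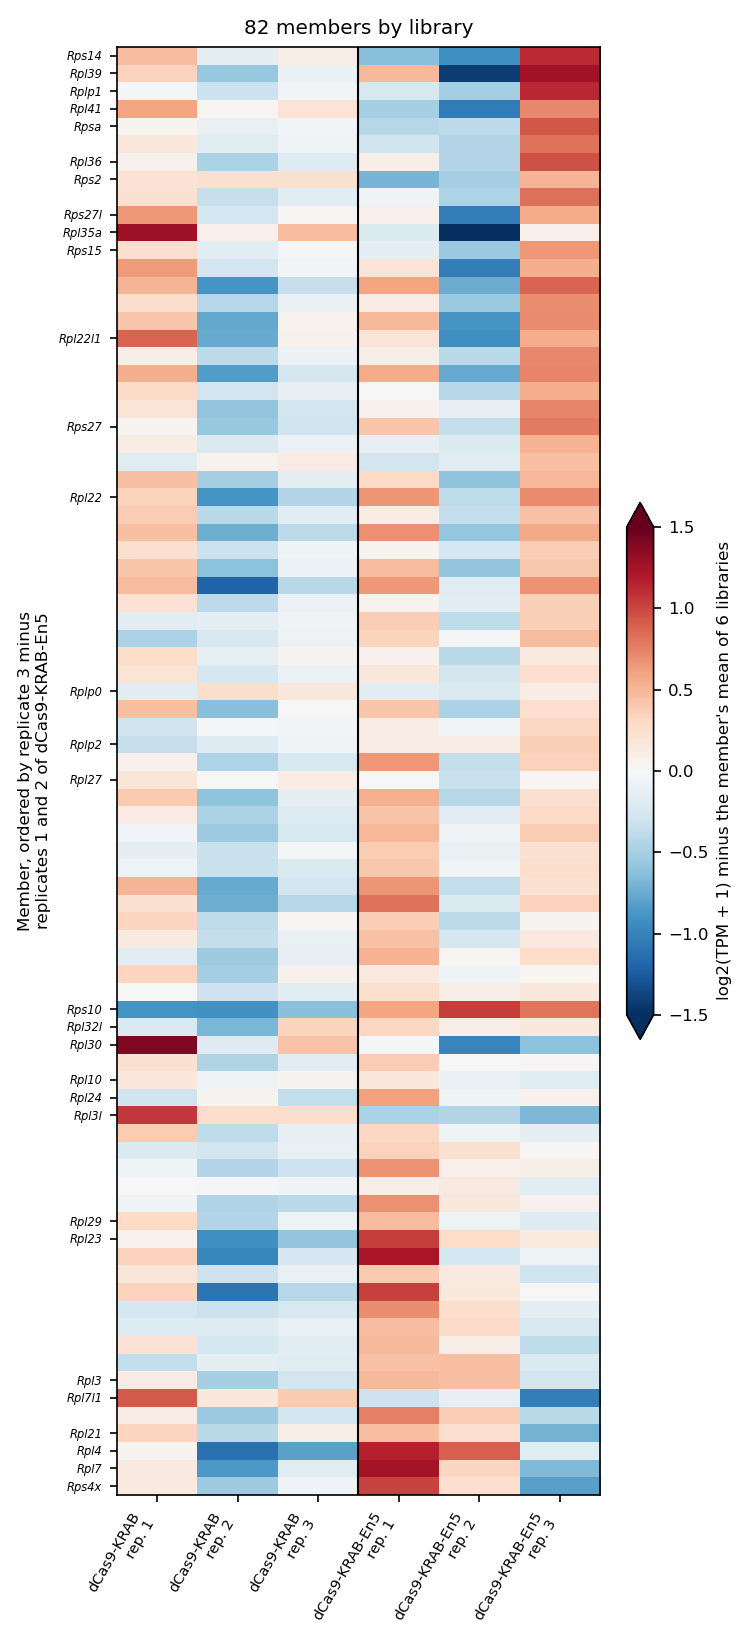
Heat map of the 82 members (rows) in the 6 libraries (columns), coloured by log2(TPM + 1) minus the member's own mean over the libraries, with labels for the members named in the text and rows ordered by replicate 3 minus replicates 1 and 2 of dCas9-KRAB-En5. The right column runs from red at the top (Rps14, Rpl39, Rplp1, Rpl41) to blue at the bottom (Rpl4, Rpl7, Rps4x), and Rps10 is blue in all 3 dCas9-KRAB columns and red in all 3 dCas9-KRAB-En5 columns.

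The split was compared with the base composition of the transcripts. Across these 76 core members the log2 ratio of TPM of replicate 3 to replicates 1 and 2 had a Spearman correlation of 0.38 with GC content, and across 12972 tested genes one of 0.39. The 25 members of highest GC content (54.5% to 60.8%) had a median log2 ratio of 0.67 and were higher in replicate 3 in 21 cases. The 25 of lowest GC content (41.3% to 49.7%) had a median of 0.07 and were higher in 13. The 26 between them (49.7% to 54.2%) had a median of -0.01 and were higher in 12, so the medians did not rise steadily with GC content. With exon length the correlation was -0.18 in members and -0.48 in all tested genes. Deviations from a gene's mean TMM-scaled log2 CPM of the 6 libraries were also set against GC content, library by library. Over the 82 members these Spearman correlations were -0.21, 0.38 and 0.29 in dCas9-KRAB. In dCas9-KRAB-En5 they were -0.51, -0.02 and 0.23, so such a relation was not particular to replicate 3. These values describe genes that share libraries, and the part of GC content and length in the result was not tested apart from the offsets given with the processing alternatives.

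**Figure D3:**
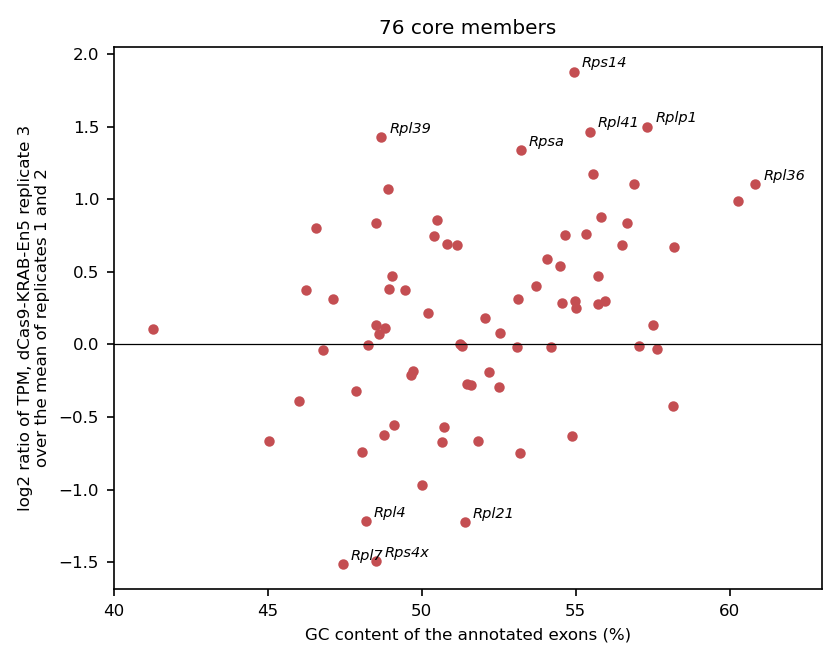
GC content of the annotated protein-coding transcripts (x axis, percent, labelled as annotated exons) against the log2 ratio of TPM in dCas9-KRAB-En5 replicate 3 to the mean of replicates 1 and 2 (y axis). There is 1 point for each of the 76 core members that are not pseudogenes. Points of GC content above 54.5% lie mostly above 0, with Rps14, Rpl41 and Rplp1 highest, and Rpl7 and Rps4x are lowest.

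Between the groups, the members showed no change that passed the cutoffs of an adjusted p of at most 0.01 and a log2 fold change of at least 1 in size. edgeR's quasi-likelihood test called 0 of 82 members, against 6.19% of all tested genes (890 of 14378). At an unadjusted p under 0.05 there were 3 members (Rpl3l, Rpl7l1 and Rps10) against 32.9% of all tested genes. A fit blocked on the replicate number gave 6, adding Rpl4, Rpl30 and Rpl35a, against 36.7%. At an adjusted p of at most 0.05 there were 2 (Rpl3l and Rps10) against 17%. DESeq2 called 2 members at the same cutoffs, Rpl3l as lower and Rps10 as higher, against 14.5% of genes with an adjusted p. The members' median log2 fold change in edgeR was 0.30, with quartiles of 0.06 and 0.49, and that of all tested genes 0.08. It was above 0 for 65 of 82 members and for 52.3% of all tested genes. With the replicate block the members' median was 0.09 and that of all tested genes 0.03, with 51 members above 0. The median standard error was 0.58 for members as for all tested genes, so a change of 1 on the log2 scale was less than 2 standard errors for most members. The direction rested on 1 library: without dCas9-KRAB-En5 replicate 3 the members' median was -0.45.

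Rps10, a small subunit protein, was the member with the highest log2 fold change. Its levels of 2.73, 2.69 and 3.49 TPM in dCas9-KRAB and 9.42, 13.2 and 11.04 TPM in dCas9-KRAB-En5 did not overlap, and this held without dCas9-KRAB-En5 replicate 3. The log2 fold change was 1.87 ± 0.53 (SE), with an adjusted p of 0.0316 in edgeR and of 0.00656 in DESeq2. An offset for gene length brought it past the cutoffs in edgeR with an adjusted p of 0.00739, or 0.00244 together with the replicate block. Its counts were 171, 233 and 361 against 461, 516 and 584.

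The other members with the highest log2 fold changes, Rpl4, Rpl23, Rpl24 and Rpl39, did not pass in edgeR. Rpl4, a large subunit protein at the exit tunnel, had 1535, 684 and 857 TPM in dCas9-KRAB and 3360.3, 2767 and 1315 TPM in dCas9-KRAB-En5, where only replicate 3 overlapped the first group. Its log2 fold change was 1.02 ± 0.52 with an adjusted p of 0.201 in edgeR. It was higher in all 3 pairs of same-numbered libraries, and with the replicate block its log2 fold change was 1.12 ± 0.43 (adjusted p 0.0706, edgeR). Of the alternatives, limma on log2(TPM + 1) called it without replicate 3. Rpl23, a large subunit protein that also binds Mdm2, had 653, 332 and 416 TPM against 1286, 760.2 and 695 TPM, which did not overlap, with a log2 fold change of 0.83 ± 0.53 and an adjusted p of 0.297 in edgeR. Rpl24 had a log2 fold change of 1.48 ± 1.06 on few counts and Rpl39 one of 0.80 ± 0.80, the latter with 419 TPM in replicate 2 and 2697 TPM in replicate 3 of dCas9-KRAB-En5. Without replicate 3 the log2 fold change of Rpl39 was -0.70.

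The core members with the lowest log2 fold changes were Rpl30 and Rpl35a. Rpl30, a large subunit protein, had 295, 96.8 and 149 TPM in dCas9-KRAB and 108, 55.6 and 72.3 TPM in dCas9-KRAB-En5, with a log2 fold change of -1.27 ± 0.60 and an adjusted p of 0.165 in edgeR. Rpl35a, which is mutated in some cases of Diamond-Blackfan anaemia, had 406, 176 and 231 TPM against 145, 52.2 and 176 TPM, with a log2 fold change of -0.98 ± 0.70 (adjusted p 0.362, edgeR). The groups of both genes overlapped through dCas9-KRAB replicate 2, but within same-numbered pairs both genes were lower in all 3. With the replicate block the log2 fold change of Rpl30 was -1.23 ± 0.48 (adjusted p 0.073) and that of Rpl35a -1.38 ± 0.56 (adjusted p 0.0839) in edgeR. Rpl21 (-0.21 ± 0.45), Rpl27 (-0.17 ± 0.54) and Rps2 (-0.14 ± 0.65) came next on the log2 scale, each within 1 standard error of 0.

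By level alone, 11 members had TPM in dCas9-KRAB-En5 that did not overlap those in dCas9-KRAB and were higher, 13.4% of members against 7.76% of tested genes, and 2 were lower, 2.44% against 19.7%. The lower ones were Rpl3l and Rpl7l1, both paralogs. The higher ones included Rps10, Rpl23 and Rplp2. Without dCas9-KRAB-En5 replicate 3, 19 members were higher without overlap (23.2%, against 46.2% of tested genes) and 9 were lower (11%, against 22.4%).

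Leaving out dCas9-KRAB-En5 replicate 3 changed the picture in edgeR. Of the 82 members, 67 then had a log2 fold change below 0, and 4 passed the cutoffs as lower (4.88%, against 14% of 15265 tested genes). These were Rps2, Rpl41, Rps14 and Rpl3l. Rps2, a small subunit protein near the mRNA entry channel, had 805, 820.4 and 812 TPM in dCas9-KRAB and 429, 489 and 989 TPM in dCas9-KRAB-En5. The first 2 values of dCas9-KRAB-En5 lie below and the last above the first group, and the log2 fold change went from -0.14 to -1.46 (adjusted p 0.00527, edgeR). Rpl41 went from -0.11 to -1.67 (adjusted p 0.00626) and Rps14 from 0.33 to -1.55 (adjusted p 0.00712). With the replicate block and all libraries Rps14 was at -0.50 on the log2 scale. At an adjusted p of at most 0.05, 12 members were lower (14.6%, against 22.6% of tested genes) and 1, Rps10, was higher.

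The direction without that replicate depended on the scaling. The median log2 fold change of the members was -0.45 with TMM factors, -0.11 with total counts, 0.01 with an offset for gene length and 0.16 in limma on log2(TPM + 1). The medians of all tested genes in these fits were -0.05, 0.29, -0.04 and 0.35, so relative to them the members were lower in 3 of the 4 and higher with the length offset. In the 25 members of highest GC content the median in the TMM fit was -0.70, and in the 25 of lowest GC content -0.18.

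**Figure D4:**
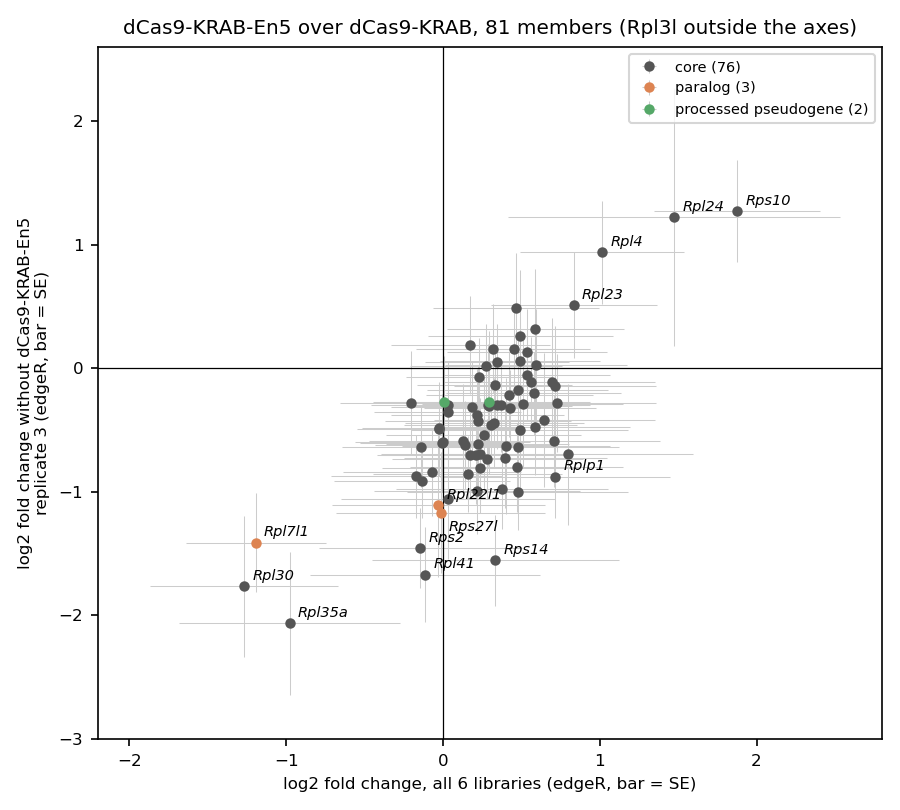
Log2 fold changes of dCas9-KRAB-En5 over dCas9-KRAB from edgeR with all 6 libraries (x axis) and without dCas9-KRAB-En5 replicate 3 (y axis) for 81 members, with bars of 1 standard error, and with Rpl3l at -4.11 and -3.73 outside the axes. Most points lie right of 0 and below 0, whereas Rps10, Rpl24, Rpl4 and Rpl23 are above 0 on both axes and Rpl30, Rpl35a and Rpl7l1 below 0 on both.

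To ask which members departed from the rest, edgeR was refitted with library factors set by the core members, so that a log2 fold change of 0 means moving with the core. No member passed the cutoffs, against 2.94% of all tested genes, and none had an adjusted p of at most 0.05. At an unadjusted p under 0.05 there were 5, Rpl3l, Rpl4, Rpl30, Rpl35a and Rps10, against 23.5% of all tested genes. Relative to the core, the log2 fold change of Rpl4 was 1.12 ± 0.46 (adjusted p 0.164), that of Rps10 1.70 ± 0.73 (adjusted p 0.183), that of Rpl30 -1.40 ± 0.56 (adjusted p 0.15) and that of Rpl35a -1.40 ± 0.53 (adjusted p 0.135) in edgeR. Without dCas9-KRAB-En5 replicate 3, 6 members had an adjusted p of at most 0.05 relative to the core, against 32.5% of all tested genes. These were Rpl3l, Rpl4, Rpl35a, Rpl41, Rps10 and Rps14, and again 0 passed both cutoffs.

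Each of the 4 paralogs was lower relative to its partner, the member it resembles, in every dCas9-KRAB-En5 library than in any dCas9-KRAB library. Rpl3l, the muscle form of Rpl3, was counted 104, 56 and 67 times against 5, 5 and 0 times, or 2.33, 0.911 and 0.911 TPM against 0.144, 0.179 and 0 TPM. Its log2 fold change was -4.11 ± 1.09 with an adjusted p of 0.0248 in edgeR and of 0.00032 in DESeq2. Over 23 alternative fits the log2 fold change ranged from -4.46 to -0.99, the latter in limma on log2(TPM + 1). The difference from Rpl3 was -4.38, with a range of -4.88 to -1.49. Rpl3 itself had 1068, 692 and 806 TPM against 1364, 1333 and 804 TPM, so Rpl3l made up at most 0.219% of the level of Rpl3. It shares none of its 50-base words with another gene.

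Rpl7l1, a paralog of Rpl7, had 71.9, 41.9 and 49.6 TPM in dCas9-KRAB and 29.9, 34.3 and 17.8 TPM in dCas9-KRAB-En5, with no overlap. Its log2 fold change was -1.19 ± 0.45 with an adjusted p of 0.0847 in edgeR. As a share of the TPM of Rpl7 it was 11.4 ± 1.72% in dCas9-KRAB, against 3.93 ± 1.52% in dCas9-KRAB-En5 (SD, n = 3).

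Rpl22l1, the paralog of Rpl22, had 72.3, 22.7 and 41.0 TPM against 44.7, 20.2 and 57.2 TPM, which overlapped, with a log2 fold change of -0.03 ± 0.68. As a share of the TPM of Rpl22 it was 14.2%, 10.4% and 13.9% in dCas9-KRAB and 7.03%, 6.56% and 8.73% in dCas9-KRAB-En5, which did not overlap. Rps27l, a paralog of Rps27 known as a target of p53, had 779, 415 and 504 TPM against 526, 242 and 730.3 TPM and a log2 fold change of -0.01 ± 0.67. Its share of the TPM of Rps27 was 28.8 ± 3.50% and 16.4 ± 2.63% (SD, n = 3), again without overlap.

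For these 4 shares an exact permutation test of each share gave a two-sided p of 0.1, the smallest that 3 against 3 libraries allow, so the design could not reach 0.05, and adjustment over the 4 left it at 0.1. Such a pattern was common among genes: relative to Rpl3, 24.8% of all tested genes were lower in dCas9-KRAB-En5 without overlap, relative to Rpl22 18.7%, relative to Rps27 21.3% and relative to Rpl7 21.2%. Among members it held for 7, 17, 23 and 5 of 82 relative to the same genes. The difference in edgeR's log2 fold change between paralog and partner was -0.74 for Rpl22l1 and ranged from -1.47 to -0.64 over 24 alternative fits. For Rps27l it was -0.74, with a range of -1.58 to -0.61, and for Rpl7l1 -1.66, with a range of -2.13 to -1.21. Rpl22l1 has a GC content of 39.8% against 49% in Rpl22, and shares 58.9% of its words with other genes.

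**Figure D5:**
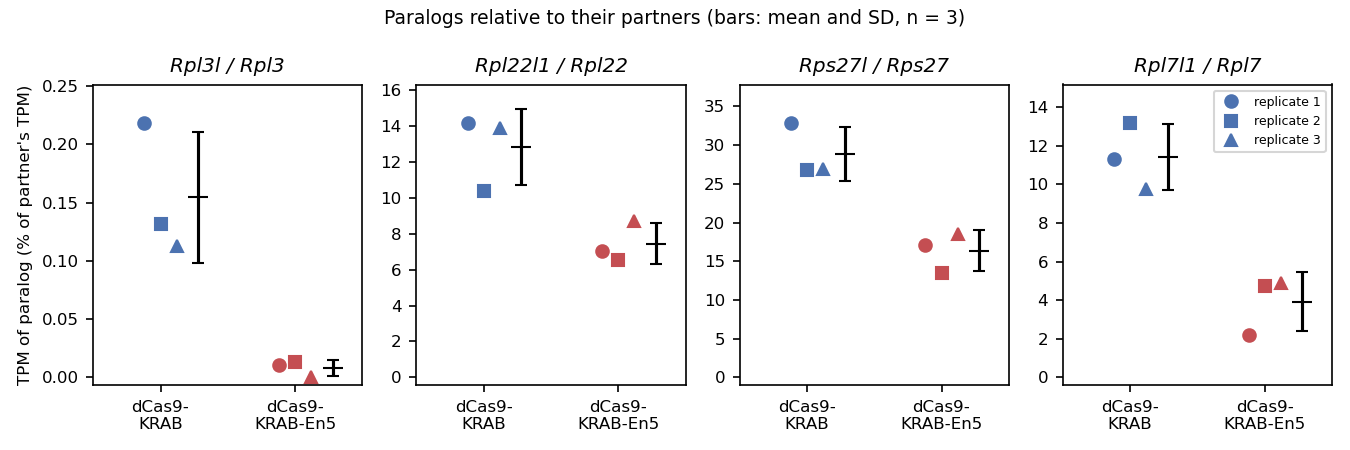
TPM of each paralog as a percent of its partner's TPM (y axis, 1 panel per pair with its own scale), with 1 point per library, blue for dCas9-KRAB and red for dCas9-KRAB-En5, and with bars for the mean and SD of 3 libraries. In every panel the 3 red points lie under the 3 blue points, from 28.8% to 16.4% on average for Rps27l and from 11.4% to 3.93% for Rpl7l1.

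The stalk proteins and Rpsa, the laminin receptor homologue of the small subunit, did not move as a set. Rplp2 had 1476, 1631 and 1809 TPM in dCas9-KRAB and 2026, 2016 and 2405 TPM in dCas9-KRAB-En5, without overlap. Rplp0 had 6258, 8406 and 7871 TPM against 6205, 6032 and 7533 TPM, which overlapped. Rpsa had 4686, 4240.2 and 4419.6 TPM against 3386, 3489.8 and 8722 TPM. Replicate 3 was here above and replicates 1 and 2 were below the first group. Rplp1 alone made up 21.5% of the members' TPM in dCas9-KRAB-En5 replicate 3 and 11.1% to 14.7% elsewhere. None of the 4 passed the test in edgeR.

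Rpl10, Rpl39 and Rps4x are the members that the unlisted Rpl10l, Rpl39l and Rps4l resemble. Rpl10, which joins the large subunit late in its maturation, had 1938 ± 156 TPM in dCas9-KRAB and 1836 ± 228 TPM in dCas9-KRAB-En5 (SD, n = 3). Rps4x had 1489 ± 347 TPM and 2044 ± 1182 TPM.

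A few ribosomal protein genes have symbols that the rule did not match. Fau, whose product releases the small subunit protein eS30, had 5871, 4772 and 5333 TPM against 6086, 5205 and 8018 TPM. Rps3a1 had 1439, 866 and 1158 TPM against 4254, 2512 and 1434 TPM, with replicate 3 inside the range of dCas9-KRAB. Rack1, a scaffold on the small subunit, had 2402 ± 121 TPM and 2255 ± 446 TPM, and Rpl36al stayed at or under 2.09 TPM. Of these 4 genes 0 passed in edgeR, 0 in DESeq2 and 0 without dCas9-KRAB-En5 replicate 3, and 0 had an unadjusted p under 0.05 in edgeR. With the replicate block Rps3a1 had an unadjusted p of 0.0323 in edgeR.

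Translation factors and other genes of the pathway were read from lists of elongation, initiation, other TOP mRNAs, ribosome biogenesis and the mitochondrial ribosome. edgeR called 0 of their 188 distinct tested genes at the cutoffs, against 6.19% of all tested genes. At an unadjusted p under 0.05, 25 were lower and 13 higher, against 32.9% of all tested genes in either direction. With the replicate number as a block 2 were lower and 2 higher, and the matching share of all tested genes is not reported here. DESeq2 called 2 lower and 3 higher, against 14.5% of genes with an adjusted p in either direction. Without dCas9-KRAB-En5 replicate 3 edgeR called 45 lower, against 14% of tested genes, and 6 higher, for which the matching share is not reported here. These counts thus depended on that library. Calls over all tested genes also rose, from 890 in either direction to 2134 lower.

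Other genes with a TOP mRNA had a median log2 fold change of 0.72 over 21 genes, 17 of them above 0, and one of 0.19 without dCas9-KRAB-En5 replicate 3. Gas5, a host gene of snoRNAs, had 10.8, 6.20 and 5.36 TPM against 40.7, 51.2 and 11.2 TPM, with a log2 fold change of 1.84 ± 0.48 and an adjusted p of 0.0231 in edgeR, 0.00879 with the replicate block. Pabpc1, the cytoplasmic poly(A) binding protein, had 42.4, 104 and 35.7 TPM against 387, 487 and 71.1 TPM, and a log2 fold change of 2.02 ± 0.58 (adjusted p 0.0336, or 0.00705 with the block, edgeR). The log2 fold change of Npm1, a nucleolar chaperone, was 1.73 ± 0.48 (adjusted p 0.0303, edgeR). For these genes replicate 3 of dCas9-KRAB-En5 was the lowest of its group, as in the members Rpl4 and Rpl7 and unlike in Rplp1 or Rps14. A low value there was common, as 28.1% of all tested genes were higher in it than the mean of replicates 1 and 2 in CPM.

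The list named elongation also holds genes that are not elongation factors, Gspt1 among them. Its median was 0.33 over 10 tested genes and -0.03 without dCas9-KRAB-En5 replicate 3. Its genes of smallest adjusted p were Gspt1 (0.86 ± 0.41), Eef1a1 (0.99 ± 0.49) and Eef2k (-1.10 ± 0.56) on the log2 scale. Eef1a1, which delivers aminoacyl-tRNA, had 4622, 4106 and 3734 TPM against 13762, 11447 and 4587 TPM. In the initiation list the median was 0.08 over 37 genes and -0.02 without that library. Eif2b4, a subunit of the exchange factor of eIF2, had 45.9, 55.6 and 52.8 TPM against 13.97, 19.4 and 15.6 TPM, without overlap, with a log2 fold change of -1.69 ± 0.47 and an adjusted p of 0.0295 in edgeR. Eif4b (1.47 ± 0.48) and Eif1b (1.21 ± 0.44) had the next smallest adjusted p-values of the list (log2 fold changes in parentheses).

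In the biogenesis list the median was -0.13 over 52 genes, with Ebna1bp2 at -1.37 ± 0.44, Gnl3 at 1.58 ± 0.54 and Ddx56 at -1.49 ± 0.58 on the log2 scale. The list of mitochondrial ribosomal proteins had a median of -0.71 over 77 genes, of which 9 were above 0, beside 0.30 in the members and 0.08 in all tested genes. Mrps28 had 95.5, 82.4 and 98.2 TPM against 22.4, 27.7 and 27.3 TPM, without overlap, with a log2 fold change of -1.84 ± 0.50 and an adjusted p of 0.0273 in edgeR, 0.007 with the replicate block. Mrpl49 (-1.42 ± 0.41) and Mrps7 (-1.42 ± 0.42) had adjusted p-values of 0.0365 and 0.0375 in edgeR. Without replicate 3 the median of this list was -1.33 and that of the members -0.45. In that fit 31 of its 77 genes were called lower, against 14% of all tested genes.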

How the data were processed

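The authors sequenced poly(A) RNA, aligned reads with HISAT2 2.2.1 to GRCm38 (mm10), counted them with featureCounts and deposited, per library, raw counts per gene and TPM (counts divided by gene length, scaled to 1000000). The annotation release, strand setting and treatment of multi-mapping reads are not given in the sources used here. Genes not listed in a library were taken as 0. The lengths implied by the deposited counts and TPM lay within 1% of GENCODE vM21 exon lengths for 98.6% of genes with counts in all libraries, and symbols were matched for 23155 of 23231 genes.

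Members, gene lists, markers and tests were chosen with earlier results of these data known. The members past the cutoffs were tested in edgeR 4.0.16 (R 4.3.3) with TMM factors, filterByExpr (minimum count 10, minimum total 15), the quasi-likelihood test on group alone and Benjamini-Hochberg adjustment over all 14378 genes, with cutoffs of 0.01 for the adjusted p and 1 for the size of the log2 fold change. The core fit replaced TMM factors by the geometric mean of 77 core members with at least 10 counts in every library. Each standard error is the log2 fold change divided by the square root of its F. Alternatives were limma 3.58.1 on log2 TPM with a pseudocount of 1 or 0.1, DESeq2 1.42.0, other factors and filters, the replicate block, offsets for length and (added after seeing the data) GC content, and leaving out each replicate. The TMM and core fits were run on simulated counts with a dispersion (spread beyond counting noise) of at most 0.1. These had no effect of replicate, GC content or length, so they do not show how the fits behave in these libraries. Depth was 31831093 to 73988425 counts per library.

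Deviations from the group means correlated between libraries of the same number, at 0.262, 0.214 and 0.290 over 14378 genes for numbers 1 to 3. Over the members these values were 0.442, 0.267 and 0.135, with -0.318 to 0.066 for unlike numbers. A block on the number was therefore fitted as an alternative, whereas the main test and the core fit used group alone. The numbers come from the sample titles, and what they mark is not stated there.

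Named genes were the paralogs with their partners, members past the cutoffs, the 5 core members of highest and of lowest mean TPM and of highest and lowest log2 fold change, the 3 of highest and lowest ratio of dCas9-KRAB-En5 replicate 3 to replicates 1 and 2, the stalk proteins and Rpsa, ribosomal protein genes outside the rule, the 3 of smallest adjusted p in each list, and Myog. Other genes named were chosen after their values were seen, and some genes are not reported here. Word sharing is the share of 50-base words of a member's annotated protein-coding transcripts that occur in another gene. GC content was also taken over a gene's protein-coding transcripts. For genes without a coding transcript both used all transcripts. Promoter windows come from RefSeq on GRCm38.p6.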

Additional observations from a re-analysis of the deposited data

How the results depend on the processing

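The count of 0 members called lower became 1 with no low-count filter, with DESeq2 and at an adjusted p of at most 0.05 with no fold cutoff. It ranged from 0 to 4 when a replicate was left out. The 4 were those without dCas9-KRAB-En5 replicate 3 (4.88%, against 14% of tested genes). Without that replicate it was also 4 with a GC content offset, 7 in DESeq2 and 12 at an adjusted p of at most 0.05. The 12 were 14.6% of members, against 22.6% of tested genes. Shares of all tested genes for the other counts of this paragraph are given above or not reported here, so these counts cannot be read alone. The count of 0 called higher became 1 in DESeq2, with the gene length offset with or without the replicate block, and at an adjusted p of at most 0.05. Without dCas9-KRAB-En5 replicate 3 it was 1 with the GC offset, the length offset, DESeq2 or an adjusted p of at most 0.05, and 2 in limma on log2(TPM + 1). The other alternatives, among them the replicate block alone, other factors and stricter filters, left both counts at 0, and the alternatives tried for the counts relative to the core left them at 0 at both cutoffs. In the lists, 0 lower became 2 (no filter, DESeq2, replicate block), 1 (limma on TPM with either pseudocount), 3 (block with length offset) and 6 (adjusted p of at most 0.05), and ranged from 0 to 45 when a replicate was left out. The 0 higher became 1 (no filter), 3 (DESeq2 and adjusted p of at most 0.05) and 2 (block, alone or with the length offset), and ranged from 0 to 6. The replicate block changed no other call at the cutoffs. Counting pseudogenes in, the members' share in dCas9-KRAB-En5 replicate 3 was 34.8%, and TMM-scaled CPM gave a median log2 ratio of 1.39 for that replicate. The cause of these changes was not tested.

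The members' median log2 fold change turned negative without dCas9-KRAB-En5 replicate 3 (-0.45), and then also with the GC offset (-0.35), total counts (-0.11) and DESeq2 (-0.42). The settings that combine this omission with another choice, and the GC offsets, were chosen after seeing the data. The median ranged from -0.45 to 0.62 over the replicates left out. Of 31 genes followed through the alternatives 8 changed sign in some setting. Rpl22l1 was at 0.26 with the length offset and 0.15 with block and length offset, and ranged from -1.11 to 0.50 over the replicates left out. Rps27l was at 0.0085 with DESeq2's size factors, 0.0086 in DESeq2 and 0.088 with the length offset, and ranged from -1.17 to 0.44. Rpl39 was at -0.13 with block and GC offset, and without dCas9-KRAB-En5 replicate 3 at -0.96 (GC), -0.10 (length), -0.36 (limma), -0.38 (total counts) and -0.67 (DESeq2), with a range of -0.70 to 1.32 over the replicates left out. Rpl21 was at 0.034 with block and length offset, and without that replicate at 0.35 (limma) and 0.056 (total counts). Rpl27 was at 0.16 and 0.10 with the length offset without and with the block, with a range of -0.87 to 0.14. Rps2 was at 0.11 with the length offset, with a range of -1.46 to 0.22. Rpl41 was at 0.037 with the length offset, with a range of -1.67 to 0.34. Rps14 was at -0.28 in limma with either pseudocount, -0.50 with the replicate block, and -0.11 and -0.25 when the block was joined by the length or the GC offset. Without dCas9-KRAB-En5 replicate 3 Rps14 was at -1.23 (GC), -1.04 (length), -0.91 (limma), -1.22 (total counts) and -1.52 (DESeq2), with a range of -1.55 to 0.80 over the replicates left out. Depth limits Rpl24 and Rpl3l most, with 0 to 104 counts per library.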
